A study of Mus musculus with 28 samples.

Results

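Cells that divide or are activated through their antigen receptor make more of the enzymes that break down glucose and more of the machinery that builds ribosomes, and the genes of these activities are described here in CD4+ T cells after transfer into mice. The set has 38 genes, listed by name. Of these, 16 are of glycolysis, with glucose import, lactate export and the control of pyruvate oxidation in mitochondria. The other 22 are of ribosome biogenesis, with the transcription factor Myc at their head. A gene was measured where a probe set of the array carries its symbol and no other, and the probe set with the highest mean was used. That held for 36 of the 38 genes, 14 of the 16 for glycolysis and 22 of the 22 for ribosome biogenesis, out of 19938 genes in all. The expression of Gpi1 and Eno1 was not analysed here, and only their promoter windows are counted below.

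Glycolysis splits glucose into pyruvate, which is either reduced to lactate and exported or oxidised in mitochondria. Pyruvate dehydrogenase kinases such as Pdk1 inhibit that oxidation. Ribosome biogenesis starts with RNA polymerase I, which transcribes the ribosomal RNA precursor. Nucleolar proteins then modify, cleave and fold this precursor into the small and large subunits. Myc, which T cell receptor and cytokine signals induce, is known to drive many genes of both activities in activated T cells.

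The cells were CD4+ T cells of the strain BwTRP1 Rag1-/-, with a T cell receptor for the melanocyte protein TRP1. They were stimulated with peptide on irradiated splenocytes and polarised in culture for 7 days. The Th17 cultures held IL-1, IL-6, IL-21, TGFβ2 and antibodies to IL-2, IL-4 and IFN-γ, with IL-23 added later. The Th1 cultures held IL-12 and an antibody to IL-4, and both received IL-2 medium later. Cells expressing Thy1.2 were given to sublethally irradiated (5 Gy) B6.PL hosts, which express Thy1.1. Such irradiation leaves a host part of its own blood cells. They were taken back from spleen and inguinal lymph node on day 5 or day 15 by CD4 enrichment and sorting for Thy1.2. Each sample was divided, and one portion was exposed for 2 h to anti-CD3 and anti-CD28, called restimulation here. Day 0 cells came straight from culture. There was 1 array in each of the 4 groups of day 0 and there were 3 in each of day 5. Day 15 had 4 in each Th17 group and 2 in each Th1 group. Whether the arrays of a group stand for different mice is not said in the labels, so the p-values cover the spread between these arrays alone.

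All values are log2 signals, so a difference of 1 is a doubling, and levels are compared only within a gene. No detection calls were used, so levels near the array median are not shown to be above background. The median signal of an array lay between 6.77 and 7.09, and arrays of a group correlated at 0.982 to 0.995. Among 7 measured CD4 T cell markers the mean was 12.04 to 12.58 on all 28 arrays. On 6 measured erythroid markers (Alas2, Slc4a1, Epb42, Klf1, Car2 and Rhd) the mean was 7.79 to 9.56 on day 15 arrays, against 6.25 to 6.64 on day 5 arrays. These ranges do not overlap, so day and erythroid RNA cannot be told apart in any comparison of days below. In bulk RNA, fewer cells of a type and less RNA per cell cannot be told apart either. A gene is said to be called where limma gave it an adjusted p under 0.05, with the Benjamini-Hochberg adjustment made over all 19938 genes, and "rose", "fell", "higher" and "lower" without a further remark mean that. For every such gene printed with its values, no array of one group reached into the range of the other unless overlap is stated. Over the members and comparisons there were 104 calls. Of these, 35 held when each array was left out in turn, and 69 were lost without at least 1 array. A call is one of the 35 only where it is said below to hold.

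Shown here are the promoters of 4 glycolysis genes that were lower at day 15 than at day 5 in unstimulated Th1 cells. The 4 are shown from among those that hold a short motif read by factors known to drive glycolysis. That all 4 hold it follows from this choice and is no result about genes that were lower. Each is the 250 bases before the start site in RefSeq (mouse build GRCm38.p6), on the strand of the gene. Capitals mark ACGTG on either strand, the core of the hypoxia response element, which is also contained in CACGTG, the E-box that Myc binds.
Ldha (lactate dehydrogenase A), chr7:46845554-46845803, plus strand: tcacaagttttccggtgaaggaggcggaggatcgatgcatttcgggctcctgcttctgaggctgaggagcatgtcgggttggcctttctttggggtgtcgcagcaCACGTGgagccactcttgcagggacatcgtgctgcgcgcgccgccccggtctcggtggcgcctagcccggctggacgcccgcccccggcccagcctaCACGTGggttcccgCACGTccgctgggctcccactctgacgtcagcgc
Pgk1 (phosphoglycerate kinase), chrX:106186850-106187099, plus strand: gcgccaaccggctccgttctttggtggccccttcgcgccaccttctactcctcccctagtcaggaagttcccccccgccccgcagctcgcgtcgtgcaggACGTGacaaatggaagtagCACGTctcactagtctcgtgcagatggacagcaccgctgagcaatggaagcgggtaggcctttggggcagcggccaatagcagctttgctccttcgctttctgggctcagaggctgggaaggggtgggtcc
Slc16a3 (lactate exporter), chr11:120948817-120949066, plus strand: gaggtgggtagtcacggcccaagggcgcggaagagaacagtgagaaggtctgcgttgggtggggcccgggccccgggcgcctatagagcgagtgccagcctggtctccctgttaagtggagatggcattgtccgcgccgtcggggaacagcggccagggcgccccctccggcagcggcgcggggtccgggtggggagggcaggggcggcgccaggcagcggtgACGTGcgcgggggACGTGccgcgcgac
Hk2 (hexokinase), chr6:82774455-82774704, minus strand: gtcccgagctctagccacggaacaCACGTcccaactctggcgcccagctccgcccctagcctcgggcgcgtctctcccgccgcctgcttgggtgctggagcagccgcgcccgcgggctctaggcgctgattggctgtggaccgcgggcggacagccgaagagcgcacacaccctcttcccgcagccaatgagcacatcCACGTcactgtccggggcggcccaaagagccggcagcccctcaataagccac
Over windows from 250 bases before to 50 after the start, with both strands read and a gene counted if any of its windows held the motif, ACGTG was in 9 of the 15 listed glycolysis genes with a window (60%) and 4 of 16 ribosome biogenesis genes (25%). It was in 24.4% of 15614 genes with a window that are also on the array. CACGTG was in 1 of 15 glycolysis genes (6.67%), in 3 of 16 ribosome biogenesis genes (18.8%) and in 9.5% of all. That 1 glycolysis gene is Ldha. Outside the set, ACGTG was in 13 of 27 other glycolysis genes (48.1%) and 37 of 75 other ribosome biogenesis genes (49.3%). CACGTG was in 6 (22.2%) and 18 (24%) of these, so the contrast between the listed sets was not seen in the other genes. The windows of Wdr43, a small subunit processing factor that rose on restimulation at day 5, and of Pes1, a large subunit factor that was lower at day 15 in unstimulated Th1 cells, held the E-box just after the start site, in capitals here.
Wdr43, chr17:71616222-71616247, plus strand: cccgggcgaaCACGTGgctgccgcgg
Pes1, chr11:3963967-3963992, plus strand: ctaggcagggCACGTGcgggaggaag
Tpi1 and Pfkp were also lower at day 15 in unstimulated Th1 cells, and their windows held no ACGTG. The window of Pgam1 and a window of Pkm, lower there too, held it. So did windows of Slc2a1, Hk1 and Aldoa, which were not called in that comparison. Ldha has a second window, which held none. A match is a description and shows no binding. Myc, Fbl, Npm1, Rrp12, Rrs1, Bop1 and Slc2a3 had no promoter window in the sequences used, so these motif counts leave them out.

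To put the sets side by side, each gene was centred on its mean over the 28 arrays and the centred values were averaged per array. The glycolysis mean at day 0 was 0.96 in restimulated and 1.08 in unstimulated Th17 cells, and 0.68 in restimulated and 0.49 in unstimulated Th1 cells. Every array after transfer was below these. The ribosome biogenesis mean at day 0 was 0.89 in restimulated and 0.28 in unstimulated Th17 cells, and 1.35 in restimulated and -0.08 in unstimulated Th1 cells. Both restimulated day 0 arrays were above all later arrays, while the unstimulated Th1 array of day 0 was within the range of the later ones. These means describe the lists and carry no test.

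**Figure D1:**
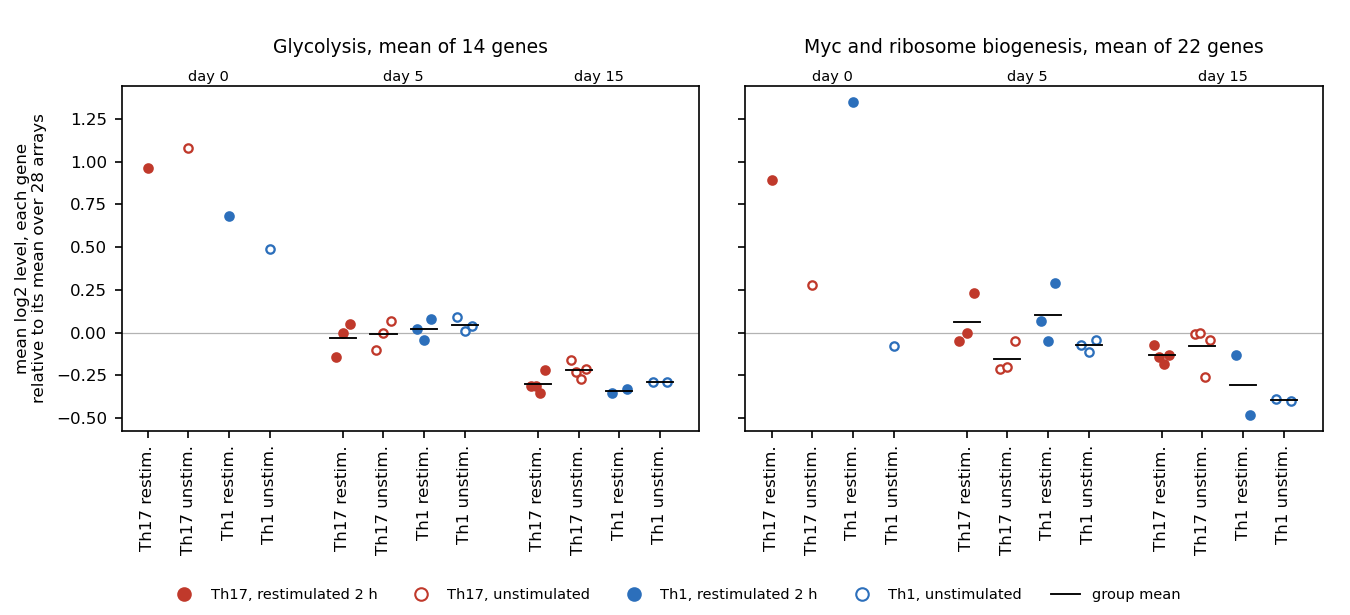
Mean centred log2 level of the 14 glycolysis genes and the 22 ribosome biogenesis genes on each array, by day (0, 5, 15) with Th17 left of Th1 and restimulated left of unstimulated within a day; each point is 1 array and each line a group mean. The day 0 arrays stand above the rest for glycolysis, and in unstimulated Th1 cells of day 15 the ribosome biogenesis points are at -0.39 and -0.40, below the 4 Th17 points of -0.26 to 0.

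The comparison of day 15 with day 5 asked how the transferred cells changed with time. Among unstimulated Th17 cells, 4 of 14 glycolysis genes were lower at day 15 and 1, Pdk1, was higher, with a median log2 difference of -0.25. Over all genes 5.28% were lower and 4.37% higher there, with a median of 0.05. Among unstimulated Th1 cells, 8 of 14 were lower and Pdk1 was higher, with a median of -0.32, and over all genes 8.72% were lower and 7.33% higher, with a median of 0.00. After restimulation 7 of 14 were lower and Pdk1 higher in Th17 cells (all genes 8.42% and 5.05%), and likewise 7 and Pdk1 in Th1 cells (8.64% and 7.07%). Without 1 array at a time the count of called glycolysis genes was 3 to 5 in unstimulated Th17 cells and 6 to 9 in unstimulated Th1 cells. It was 7 to 9 in restimulated Th17 cells and 5 to 7 in restimulated Th1 cells. The low of 3 came without array 3 of unstimulated Th17 cells of day 5, and the low of 5 without array 3 of day 5 or array 2 of day 15 of restimulated Th1 cells.

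At the first step, hexokinase Hk2 traps glucose in the cell. It stood at 7.45 and 7.48 in unstimulated Th1 cells of day 15, against 8.52, 8.52 and 8.41 at day 5. All day 15 arrays were lower by about 1 log2 unit, with a difference of -1.02 ± 0.21 (SE, adjusted p = 0.00111). Its Th17 levels without restimulation were 7.53, 7.54, 7.55 and 7.44 at day 15, against 7.67, 7.77 and 8.10 at day 5, a difference that was not called. All Th17 arrays of either day were below every Th1 array of day 5, and the difference between the day effects, 0.69, was not called (adjusted p = 0.265). Pfkp, a phosphofructokinase of the committing step, was lower at day 15 in unstimulated cells of both types, by 0.49 in Th17 cells (adjusted p = 0.000476) and 0.36 in Th1 cells (adjusted p = 0.0146), and the Th17 call held.

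In the steps that follow, Tpi1, which interconverts the 3-carbon sugars, had 10.81, 10.72, 10.59 and 10.79 in unstimulated Th17 cells of day 15, against 11.20, 11.14 and 11.33 at day 5. The Th1 arrays had 10.49 and 10.59 at day 15, against 11.60, 11.32 and 11.40 at day 5. Day 15 was below day 5 on every array in both types, and the difference was -0.50 in Th17 cells (adjusted p = 0.0132) and -0.90 in Th1 cells (adjusted p = 0.000137). Pgk1, which makes the first ATP of the pathway, had 11.49, 11.52, 11.45 and 11.46 in unstimulated Th17 cells of day 15, against 11.78, 11.87 and 11.83 at day 5. The Th1 arrays had 11.29 and 11.00 at day 15, against 12.06, 11.85 and 11.92 at day 5. The Th1 difference of -0.80 (adjusted p = 2.39e-06) exceeded the Th17 difference of -0.35 (adjusted p = 0.00659) in size, and the difference between them, 0.45, was not called (adjusted p = 0.0822). Pgam1 (-0.59), the pyruvate kinase Pkm (-0.36) and the lactate dehydrogenase Ldha (-0.28) were also called in unstimulated Th1 cells. Their adjusted p was 0.00231, 0.018 and 0.0149, and none of them was called in unstimulated Th17 cells. Pgam1 and Ldha were lower at day 15 in restimulated Th17 cells too. Pgk1 and Pgam1 have near-identical copies in the genome, so their probe sets may also read these. After restimulation Aldoa, the aldolase, was lower at day 15 in Th17 cells (-0.41, adjusted p = 0.0016).

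The lactate exporter was lower at day 15 and Pdk1 higher, in both types. Slc16a3, the lactate exporter MCT4, had 8.85, 8.70, 8.81 and 8.61 in unstimulated Th17 cells of day 15, against 9.23, 9.32 and 9.29 at day 5. The Th1 arrays had 8.35 and 8.22 at day 15, against 9.12, 8.76 and 8.77 at day 5. Both types were lower on every day 15 array, by 0.54 in Th17 cells (adjusted p = 0.000776) and 0.60 in Th1 cells (adjusted p = 0.000681). Pdk1 had 7.94 and 8.11 in unstimulated Th1 cells of day 15, against 7.04, 7.32 and 7.31 at day 5, a rise of 0.80 (adjusted p = 0.000511). The Th17 arrays had 8.59, 8.41, 8.12 and 8.55 at day 15, against 8.07, 7.82 and 8.16 at day 5. There the ranges overlap, and the difference of 0.40 (adjusted p = 0.0465) was lost without 6 of the 7 arrays in turn. The calls of Pgk1 and Slc16a3 in unstimulated Th17 cells held without each of the 7 arrays, and those of Hk2, Tpi1, Pgk1, Slc16a3 and Pdk1 in unstimulated Th1 cells without each of the 5. After restimulation those of Pfkp, Aldoa, Tpi1, Pgk1, Pgam1, Slc16a3 and Pdk1 held in Th17 cells, the Tpi1 arrays overlapping, and those of Tpi1, Pgk1, Pgam1 and Slc16a3 in Th1 cells. With the erythroid mean as a covariate 0 glycolysis genes were called in unstimulated Th17 cells and 1 in unstimulated Th1 cells, and the Pdk1 difference was -0.50 in Th17 cells and -0.27 in Th1 cells.

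**Figure D2:**
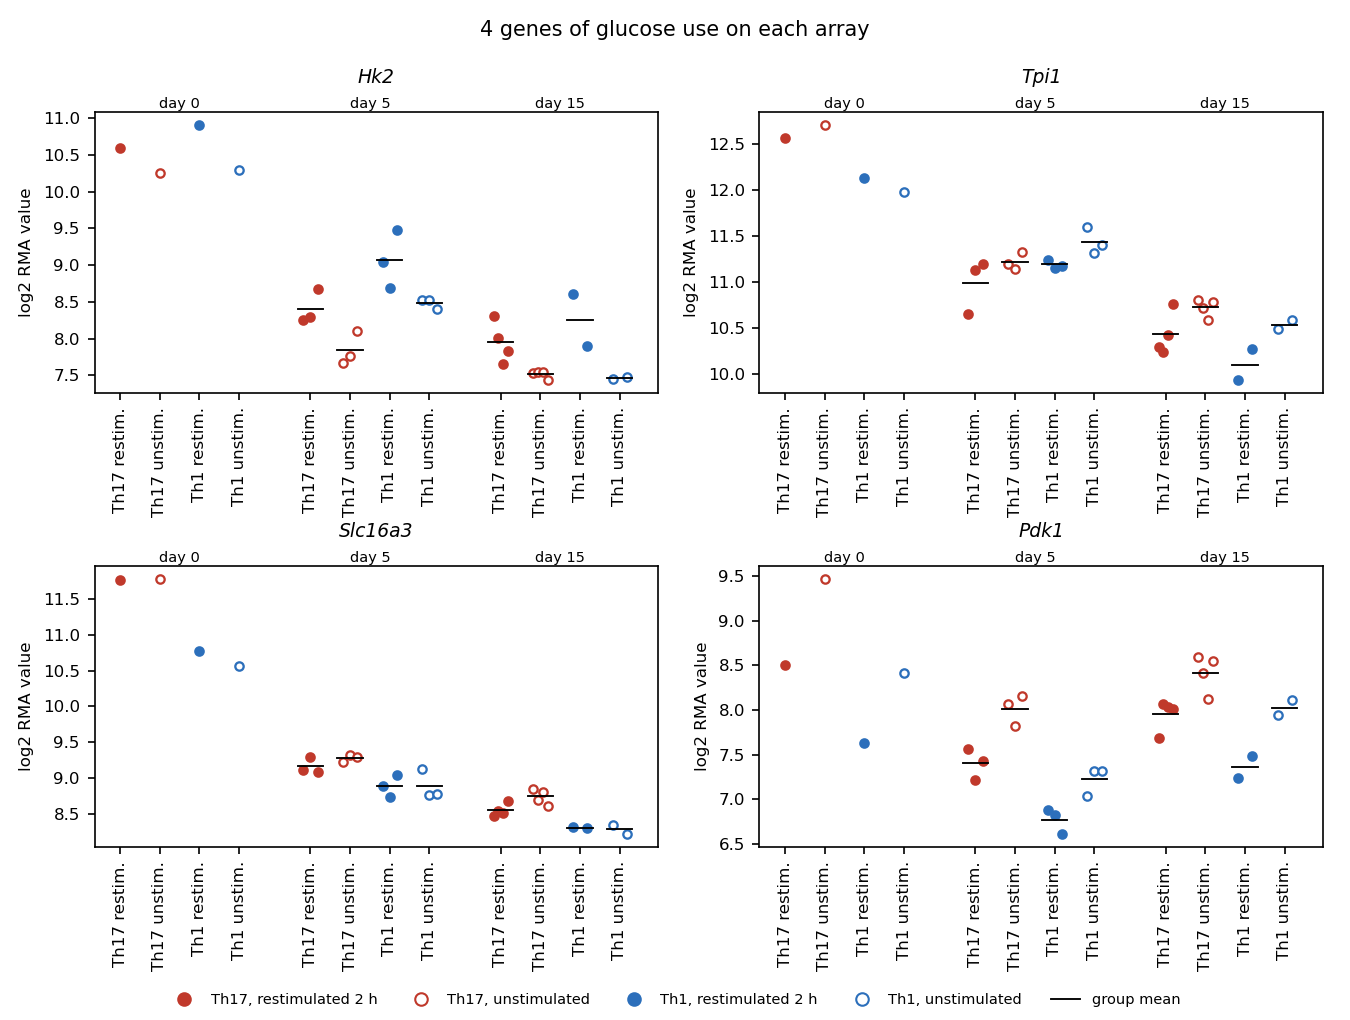
Log2 signal of Hk2, Tpi1, Slc16a3 and Pdk1 on each array at days 0, 5 and 15, with Th17 in red left of Th1 in blue, restimulated arrays filled and left of unstimulated open ones; black lines are group means. After transfer Hk2, Tpi1 and Slc16a3 are lower at day 15 than at day 5 in unstimulated Th1 cells, while Pdk1 is higher.

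Among the ribosome biogenesis genes, 3 of 22 were higher and 0 lower at day 15 in unstimulated Th17 cells, with a median of 0.13. In unstimulated Th1 cells 11 of 22 were lower and 0 higher, 19 of 22 differences were negative and the median was -0.41. After restimulation 5 of 22 were lower in Th17 cells (median -0.10) and 9 of 22 in Th1 cells (median -0.40), with 0 higher in both. These stand beside the percentages of all genes given above for the same comparisons. Among these falls were Myc (-0.88, arrays overlapping) and Rrs1 (-0.77), a large subunit factor, in restimulated Th17 cells, and Rrs1 (-0.81), Dkc1 (-0.74) and Wdr12 (-0.72) in restimulated Th1 cells. The Myc call was lost without 5 of the 7 arrays in turn. It was also lost after cyclic loess scaling (limma adjusted p = 0.0553) and with replicate numbers as a block (0.0761). The Th1 call of Wdr12 held, while without array 2 of day 15 Rrs1 was at -0.35 and Dkc1 at -0.44 in restimulated Th1 cells. The unstimulated Th1 count was 3 of 22 without array 1 of day 15, 2 of 22 without array 2 of day 15, and 7 without array 1 of day 5. In restimulated Th1 cells it was 1 without array 2 of day 15 and 5 without array 3 of day 5, while in restimulated Th17 cells it was 0 without array 3 and 3 without array 2 of day 5, 1 without array 2 and 3 without array 3 or 4 of day 15. The unstimulated Th17 count was 1 without array 1 of day 5. With the erythroid mean as a covariate 2 genes were called in unstimulated Th17 cells, both lower, and 3 in unstimulated Th1 cells.

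The calls of Fbl and Rrp12 differed between the types. Fbl, the fibrillarin that methylates ribosomal RNA, had 10.54, 10.84, 10.70 and 10.46 in unstimulated Th17 cells of day 15, against 10.22, 10.12 and 10.34 at day 5. In unstimulated Th1 cells it had 10.14 and 9.84 at day 15, against 10.44, 10.39 and 10.35 at day 5. Fbl was thus higher at day 15 in Th17 cells by 0.41 (adjusted p = 0.00594) and lower in Th1 cells by 0.41 (adjusted p = 0.0122), and the Th17 call held. The difference between these day effects was 0.81 (95% interval 0.51 to 1.11, adjusted p = 0.00572), lost without array 2 of unstimulated Th1 cells of day 15. A second Fbl probe set averaged 9.85 at day 15 and 9.81 at day 5 in unstimulated Th17 cells, and 9.54 and 9.96 in Th1 cells, so its Th17 means nearly coincide while its Th1 mean is lower at day 15. With the mean of the probe sets the Th17 difference was 0.22 (adjusted p = 0.0870). Rrp12, known in yeast for the export of pre-ribosomes from the nucleus, had 8.59, 8.60, 8.64 and 8.55 in unstimulated Th17 cells of day 15, against 8.17, 8.34 and 8.50 at day 5. In Th1 cells it had 8.09 and 8.06 at day 15, against 8.47, 8.53 and 8.45 at day 5. The day effects differed by 0.67 (adjusted p = 0.024), a call that was lost without 6 of the 12 arrays in turn.

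Fbl and Rrp12 were the 2 ribosome biogenesis genes called for that difference, against 1.14% of all genes in either direction and 0.577% higher. At an unadjusted p under 0.05 there were 12 of 22, all higher, with a median difference of 0.46, and 21 of 22 were positive. The count was 0 without array 2 of unstimulated Th1 cells of day 15. It was 1 without array 1 of that group, array 1 or 2 of unstimulated Th17 cells of day 5 or array 1 or 2 of unstimulated Th1 cells of day 5. Of 14 glycolysis genes 0 were called in limma, with 3 at an unadjusted p under 0.05 and a median of 0.14, and 1 was called without array 1 of unstimulated Th1 cells of day 15. The largest subunits of RNA polymerase I, Polr1a and Polr1b, rose at day 15 in unstimulated Th17 cells, by 0.40 (adjusted p = 0.00925) and 0.37 (adjusted p = 0.0354), while its smaller subunit Polr1d fell by 0.45. The Polr1b call was lost without 5 of the 7 arrays in turn, and with the erythroid mean as a covariate Polr1b was at -0.40 (not called). In unstimulated Th1 cells the other large falls were Nop58, a core protein of the methylating particles (-0.69, adjusted p = 0.0122), Nop16 (-0.57, adjusted p = 0.0121), Dkc1, the pseudouridine synthase (-0.51, adjusted p = 0.0297, lost without each of the 5 arrays in turn), and Rrp9 (-0.51, adjusted p = 0.00627). Cell cycle genes moved with day too: 19 of 29 were lower at day 15 in unstimulated Th17 cells (median -0.43) and 28 of 29 in unstimulated Th1 cells (median -1.04). Their part in these results was not tested.

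**Figure D3:**
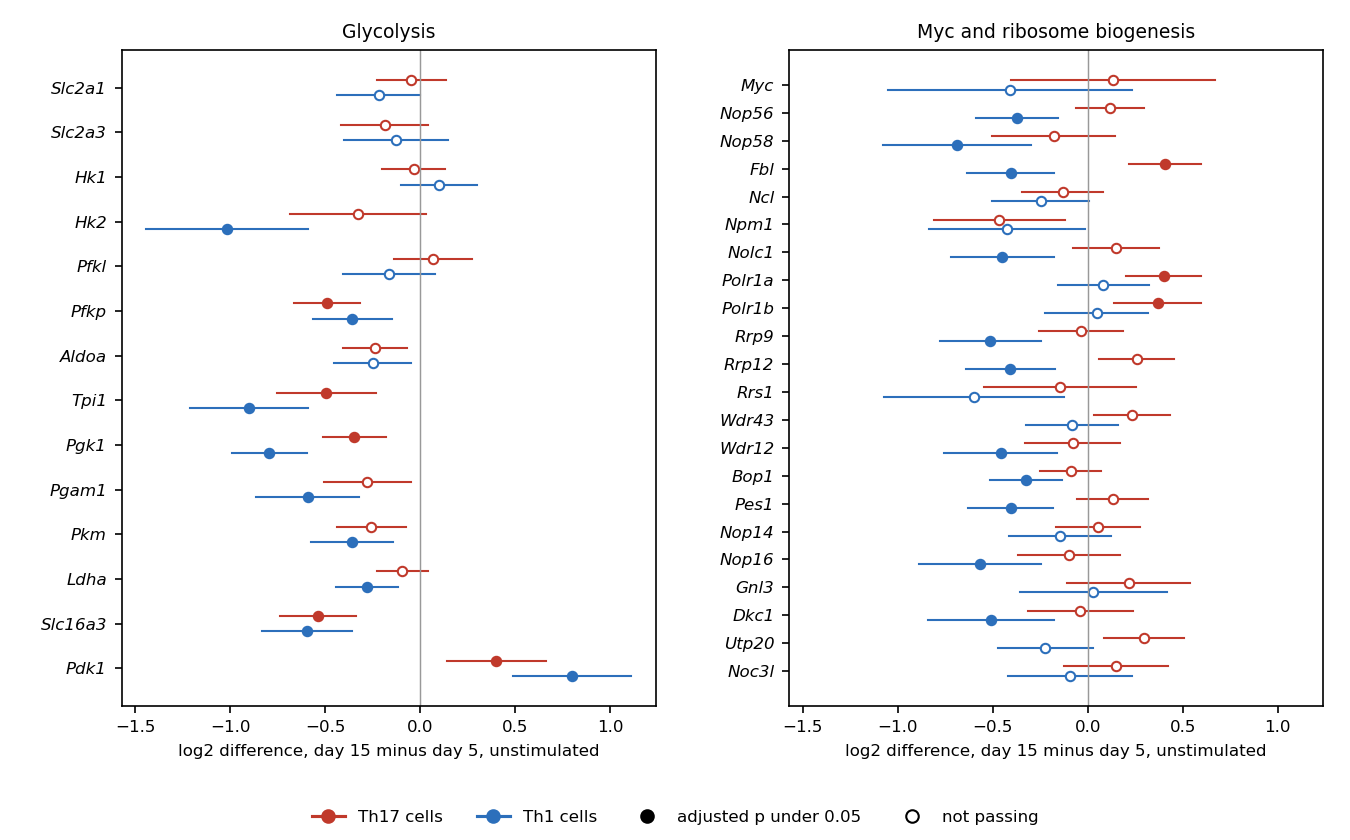
Day 15 minus day 5 log2 difference of each gene in unstimulated cells with its 95% interval, Th17 above Th1 for each gene, filled where adjusted p was under 0.05. Among ribosome biogenesis genes the Th1 points lie to the left of 0 in 19 of 22, and 11 are filled.

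Restimulation asked how the cells respond to their receptor. Myc had the largest rise of the 36 genes at day 5 in both types. It had 11.55, 11.89 and 12.19 in restimulated Th17 cells of day 5, against 10.83, 10.63 and 10.99 in unstimulated ones. In Th1 cells it had 11.92, 11.87 and 12.36 when restimulated, against 10.71, 10.82 and 10.80 when unstimulated. Every restimulated array lay above every unstimulated one, and Myc rose 2.08-fold in Th17 cells (log2 1.06, adjusted p = 0.0196) and 2.41-fold in Th1 cells (log2 1.27 ± 0.28 SE, adjusted p = 0.00353). The Th1 call held without each of the 6 arrays and the Th17 call was lost without 3 of the 6.

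By day 15 the Myc arrays varied. Restimulated Th17 cells had 11.87, 10.75, 10.66 and 10.70, against 11.16, 11.03, 10.60 and 11.01 in unstimulated ones. Restimulated Th1 cells had 11.89 and 10.61, against 10.26 and 10.48. Only 1 of 4 Th17 and 1 of 2 Th1 restimulated arrays stood near 11.9, and neither difference was called, at 0.05 in Th17 cells and 0.88 in Th1 cells. That the response of Myc changed with day was not called either: the day 15 minus day 5 difference of the restimulation effect was -1.01 in Th17 cells (adjusted p = 0.195) and -0.39 in Th1 cells. In Th1 cells 0 of 22 ribosome biogenesis genes passed limma for that change, with 2 at an unadjusted p under 0.05, and 0.0251% of all genes were called. For that change in Th17 cells 0 of 22 ribosome biogenesis genes passed limma, with 10 at an unadjusted p under 0.05, and 1.17% of all genes were called. The count was 1 without array 1 of restimulated Th17 cells of day 5, array 1 of restimulated or array 4 of unstimulated Th17 cells of day 15.

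**Figure D4:**
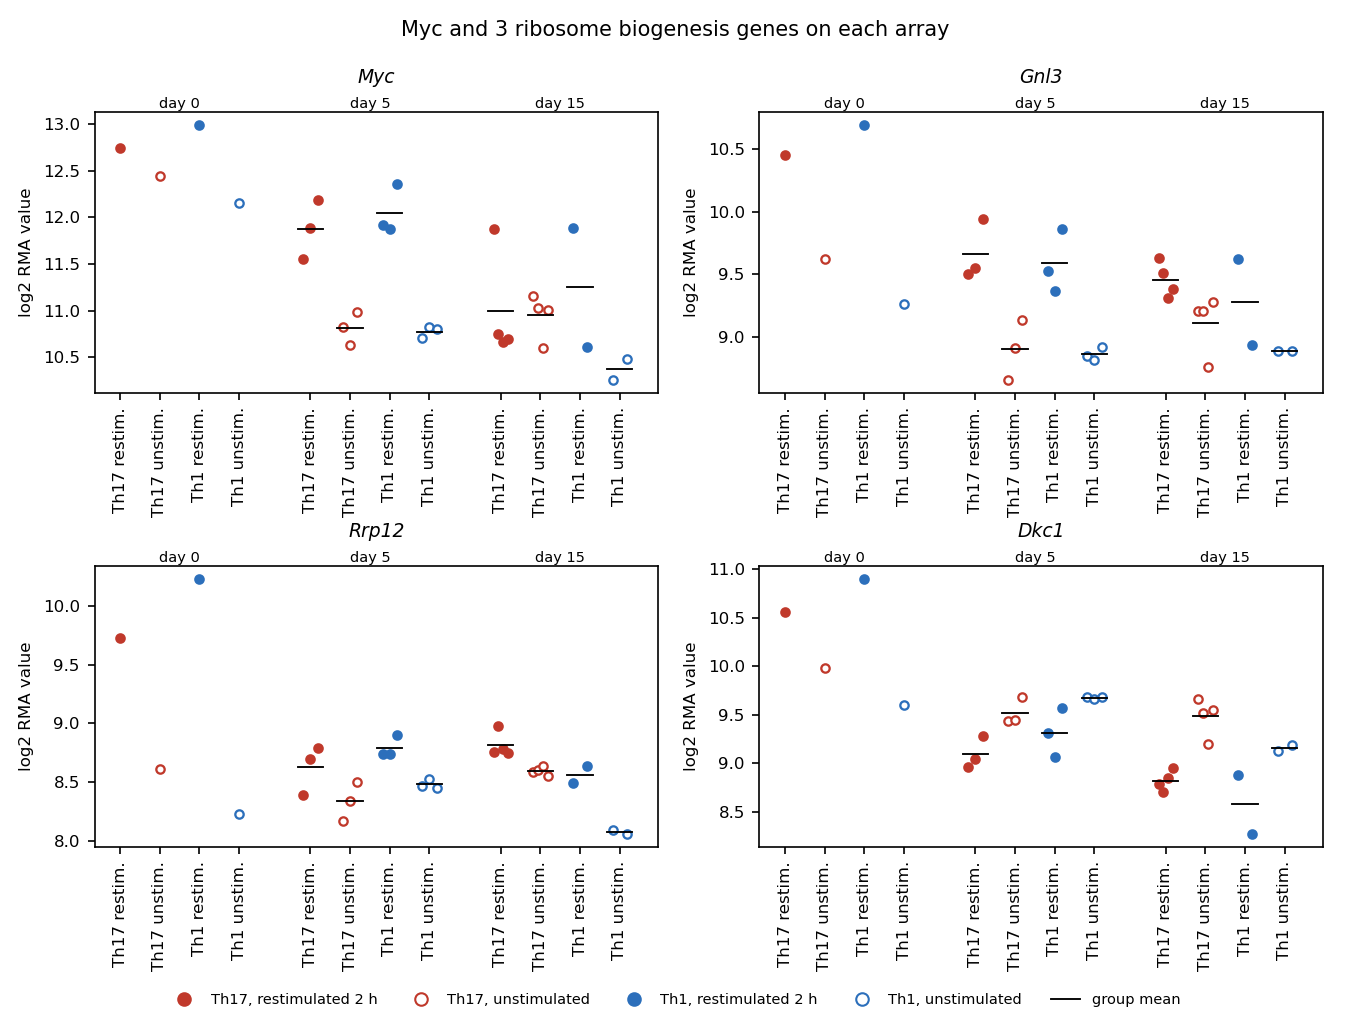
Log2 signal of Myc, Gnl3, Rrp12 and Dkc1 on each array at days 0, 5 and 15, with Th17 in red left of Th1 in blue, restimulated arrays filled and left of unstimulated open ones; black lines are group means. At day 5 all restimulated arrays are above the unstimulated ones for Myc and Gnl3, while at day 15 Myc arrays overlap in Th17 cells.

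At day 5, 3 of 22 ribosome biogenesis genes rose on restimulation in Th17 cells and 5 of 22 in Th1 cells, with 0 falling in both. Their medians were 0.19 and 0.10. Over all genes 3.99% rose and 4.08% fell in Th17 cells, with a median of 0.03, and 4.07% rose and 8.96% fell in Th1 cells, with a median of -0.01. With replicate numbers as a block, as the pairing found at day 5 allows, the Th17 count was 5 of 22. Gnl3, nucleostemin, a nucleolar GTP-binding protein of the large subunit, had 9.50, 9.55 and 9.94 in restimulated Th17 cells, against 8.66, 8.91 and 9.14 in unstimulated ones. In Th1 cells it had 9.53, 9.37 and 9.86 when restimulated, against 8.85, 8.82 and 8.92. It rose by 0.76 in Th17 cells (adjusted p = 0.00647) and 0.72 in Th1 cells (adjusted p = 0.00565). Wdr43 rose by 0.46 in Th17 cells (adjusted p = 0.00756) and 0.49 in Th1 cells (adjusted p = 0.00302), calls that held without each of the 6 arrays in turn. Nop14, which helps shape the small subunit, had 9.58, 9.30 and 9.77 in restimulated Th1 cells, against 9.09, 8.98 and 9.01 in unstimulated ones (0.52, adjusted p = 0.00407), a call that held. Rrp12 rose by 0.31 in Th1 cells (adjusted p = 0.0426), at adjusted p = 0.0615 with the block. The Th17 count was 1 without array 1 of unstimulated or array 3 of restimulated Th17 cells and 5 without array 1 of restimulated ones. The Th1 count was 3 without array 3 of restimulated Th1 cells.

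At day 15 the response of Th17 cells ran both ways, with 3 of 22 higher and 5 of 22 lower, a median of -0.01, against 6.49% and 11.1% of all genes (median -0.08). After cyclic loess scaling the split was 6 higher and 4 lower. Dkc1 had 8.78, 8.70, 8.85 and 8.95 in restimulated Th17 cells, against 9.66, 9.52, 9.20 and 9.55 in unstimulated ones. All restimulated arrays were lower, by 0.66 on average (adjusted p = 0.000592), and Pes1 (-0.39), Polr1b (-0.46), Utp20 (-0.35) and Fbl (-0.33) fell as well, with adjusted p of 0.00184, 0.00293, 0.0123 and 0.00845. Those 5 calls held without each of the 8 arrays in turn. Erythroid markers moved with them: 6 of 6 were lower in restimulated Th17 cells of day 15, and their mean was 7.79 to 8.14 there, against 8.49 to 9.36 in unstimulated ones, with no overlap. With that mean as a covariate all 5 calls were lost, at -0.11 for Dkc1 (adjusted p = 0.741), -0.31 for Pes1 (0.182), -0.14 for Polr1b (0.638), -0.06 for Utp20 (0.840) and -0.30 for Fbl (0.224). Restimulation and erythroid RNA therefore cannot be told apart for these genes at day 15. The second Fbl probe set ran the other way, at 10.05 in restimulated and 9.85 in unstimulated Th17 cells, and the mean of the Fbl probe sets gave -0.07 (adjusted p = 0.569). Nop58 (0.49), the ribosomal RNA chaperone Ncl (0.32) and Npm1 (0.53) rose at adjusted p of 0.021, 0.023 and 0.0191, and all of these calls were lost without array 3 of unstimulated Th17 cells, which was lowest for Nop58 and Ncl. Without array 2 of restimulated Th17 cells 5 genes were called. In Th1 cells of day 15, Rrp12 rose by 0.50 (adjusted p = 0.0174) and Dkc1 fell by 0.59 (adjusted p = 0.0427), against 2.65% of all genes higher and 4.63% lower. The Th1 count was 0 without either of the unstimulated arrays. The erythroid mean was 8.69 to 9.10 in restimulated and 9.17 to 9.56 in unstimulated Th1 cells of day 15, and with it as a covariate both calls were lost, at 0.44 for Rrp12 (adjusted p = 0.0942) and -0.33 for Dkc1 (adjusted p = 0.313).

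Of the 14 glycolysis genes 1 to 3 were called on restimulation in each comparison, with 0 higher and 1 lower in Th17 and 1 and 1 in Th1 cells of day 5, and 1 and 2 in Th17 and 1 and 1 in Th1 cells of day 15. Over all genes 3.99% were higher and 4.08% lower in Th17 and 4.07% and 8.96% in Th1 cells of day 5, and 6.49% and 11.1% in Th17 and 2.65% and 4.63% in Th1 cells of day 15. In Th17 cells of day 5 only Pdk1 of 14 was called, lower by 0.62 (adjusted p = 0.00572), with 2 calls under the block. In Th1 cells of day 5 Hk2 rose by 0.59 (adjusted p = 0.0368) and Pdk1 fell by 0.46 (adjusted p = 0.0264). At day 15 Hk2 rose in Th1 cells by 0.79 (adjusted p = 0.0354), and Pdk1 fell by 0.67 there (adjusted p = 0.0163) and by 0.47 in Th17 cells (adjusted p = 0.00705). Pdk1 was thus lower on restimulation in all 4 comparisons, and its Th17 calls held at both days without each array in turn. With the erythroid mean, which also moved with restimulation at day 15, as a covariate the day 15 calls were lost, at -0.09 in Th17 cells (adjusted p = 0.787) and -0.49 in Th1 cells (adjusted p = 0.133). The day 15 calls of Pfkp, Pfkl and Hk2 were lost with it too. In Th17 cells of day 15 the phosphofructokinase Pfkp rose by 0.31 (adjusted p = 0.00723, a call that held). Its relative Pfkl fell there by 0.31 (adjusted p = 0.0212). Hk1 was not called, but its second probe set averaged lower on restimulation. That probe set went from 11.24 to 10.95 in Th1 and 11.1 to 10.9 in Th17 cells of day 5. At day 15 it went from 11.22 to 10.99 and 11.22 to 11.0. The used Hk1 probe set went from 12.65 to 12.72, 12.77 to 12.78, 12.75 to 12.77 and 12.74 to 12.82, in that order. The Hk2 calls were lost without 5 of 6 arrays at day 5 and 3 of 4 at day 15. In Th1 cells of day 5 there were 0 glycolysis calls without array 2 or 3 of the unstimulated or array 3 of the restimulated cells, and 1 without array 1 of either. In Th1 cells of day 15 there were 0 without either unstimulated array or array 1 of the restimulated ones, and in Th17 cells of day 15 there were 5 without array 4 of the restimulated ones and 2 higher and 1 lower without array 3. Between the types, 0 of 36 members were called in limma for a different restimulation response at either day. Over all genes 0.0201% were called at day 5 and 0% at day 15. At an unadjusted p under 0.05 there were 0 members at day 5 and 1 at day 15. The limma fits without the block, this one included, took no account of the pairing found at day 5.

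**Figure D5:**
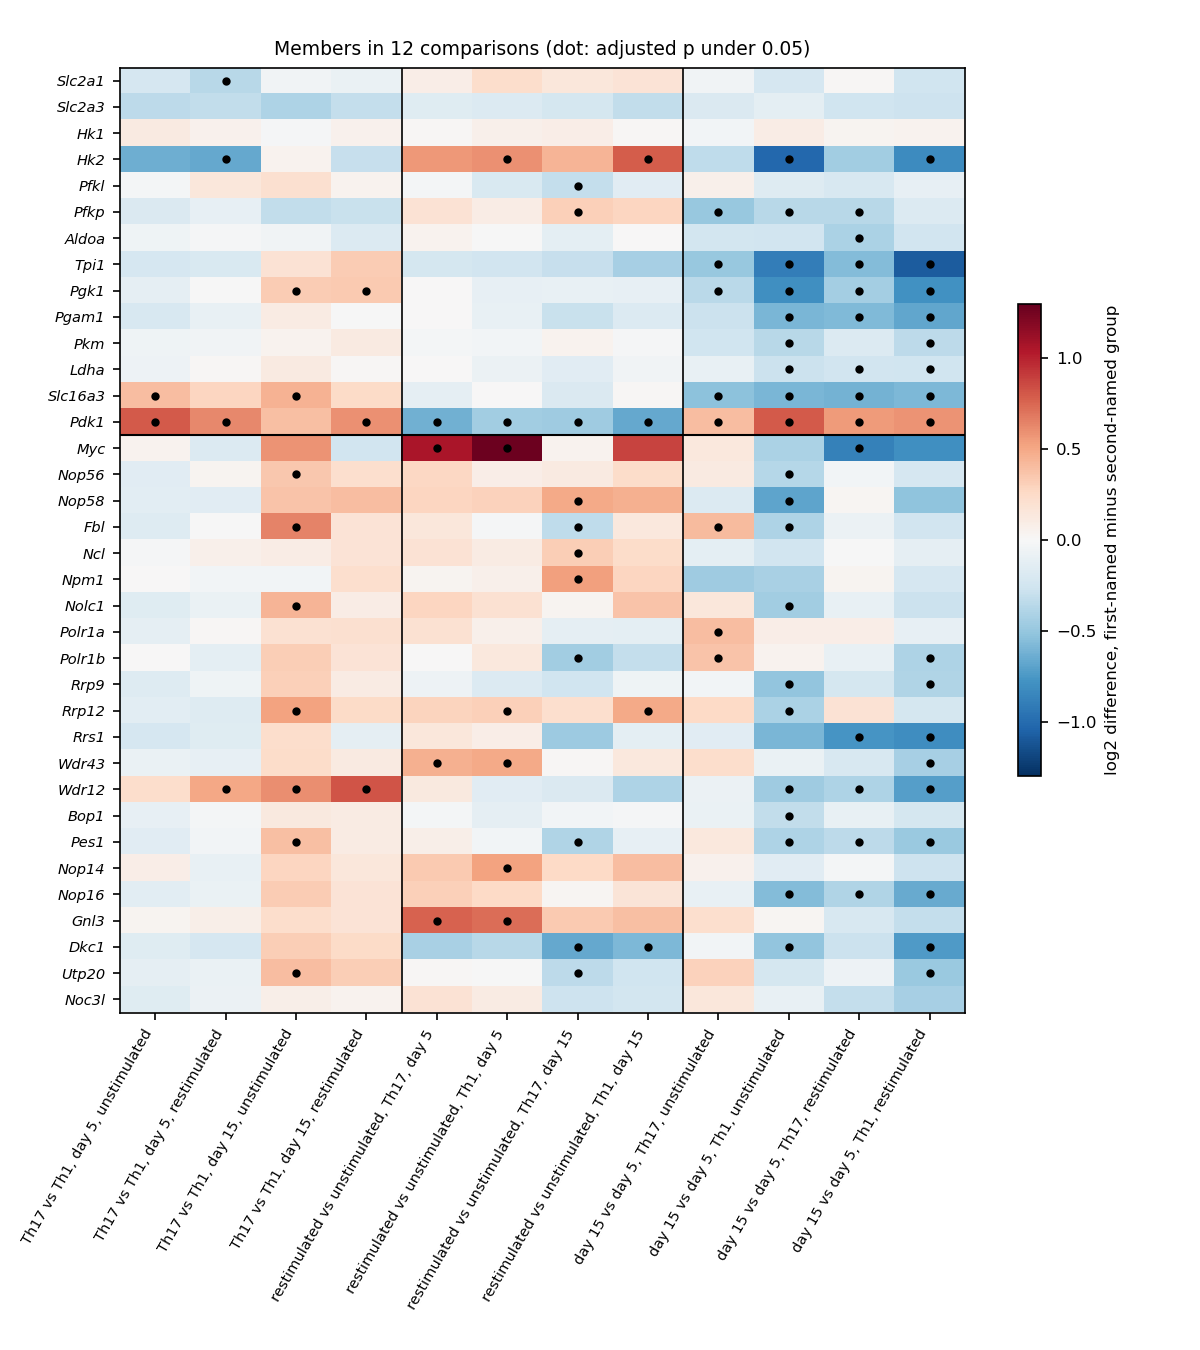
Log2 difference of each gene, first-named minus second-named group, in the 12 comparisons after transfer, with a dot where adjusted p was under 0.05. The day columns are mostly below 0 for glycolysis in both types, with Pdk1 above 0, and for ribosome biogenesis below 0 in Th1 cells.

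Polarization was compared at each day and condition. At day 5 unstimulated Th17 cells had 2 of 14 glycolysis genes higher and 0 of 22 ribosome biogenesis genes called in limma, with 0 at an unadjusted p under 0.05, while 2.31% of all genes were higher and 1.32% lower. Pdk1 had 8.07, 7.82 and 8.16 in unstimulated Th17 cells, against 7.04, 7.32 and 7.31 in Th1 cells. Every Th17 array was above every Th1 array, by 0.79 on average (adjusted p = 0.000545), and the call held without each of the 6 arrays. Slc16a3 averaged 9.28 ± 0.04 in Th17 cells and 8.88 ± 0.20 in Th1 cells (SD, n = 3 each, adjusted p = 0.0289), a call that was lost without 5 of the 6 arrays. The glycolysis count was 1 without array 1 or 2 of unstimulated Th17 cells or array 2 or 3 of unstimulated Th1 cells. After restimulation at day 5, Hk2 was lower in Th17 cells at 8.25, 8.30 and 8.68, against 9.05, 8.69 and 9.48 in Th1 cells (-0.67, adjusted p = 0.0409), and Slc2a1, the glucose transporter GLUT1, was lower by 0.36 (adjusted p = 0.027). Pdk1 was higher by 0.63 (adjusted p = 0.00548) and the large subunit factor Wdr12 by 0.50 (adjusted p = 0.0244), where 2.95% of all genes were higher and 1.02% lower. Of the restimulated arrays, 0 glycolysis genes were called without array 3 of Th1 cells and 1, Pdk1, without array 1 of Th17 cells, and Wdr12 was lost without array 1 or 3 of Th17 cells or array 2 or 3 of Th1 cells.

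At day 15 without restimulation, 7 of 22 ribosome biogenesis genes were higher in Th17 cells and 0 lower, with 21 of 22 positive and a median of 0.32. With array medians centred 3 were called, and with the replicate block 3, the calls of Nop56, Nolc1, Pes1 and Utp20 being lost in both. Over all genes 1.88% were higher and 2.28% lower, with a median of 0.02. Fbl averaged 10.63 in Th17 cells and 9.99 in Th1 cells (0.64, adjusted p = 0.000395), and Rrp12 averaged 8.60 and 8.07 (0.52, adjusted p = 0.00408). Wdr12 had 9.65, 9.87, 9.39 and 9.75 in Th17 cells, against 9.09 and 9.02 in Th1 cells (0.61, adjusted p = 0.00957). Nop56, Nolc1, Pes1 and Utp20 were the others, at 0.35 to 0.44. With the probe sets used, Slc2a3, the other glucose transporter, Hk1 and Noc3l were called in none of the 12 comparisons. The count was 0 without array 2 of unstimulated Th1 cells, 2 without array 1, 3 without array 1 of unstimulated Th17 cells and 4 without array 2 or 4. Of 14 glycolysis genes 2 were higher, Pgk1 (0.33, adjusted p = 0.0359) and Slc16a3 (0.46, adjusted p = 0.0153), while after centring array medians 1 was higher and 2 lower. This count was 0 without array 2 of unstimulated Th1 cells, and 1 without array 1 of those or array 1 or 2 of unstimulated Th17 cells. After restimulation Wdr12 alone of the 22 was called, at 9.21, 9.34, 9.68 and 9.66 in Th17 cells against 8.73 and 8.57 in Th1 cells (0.82, adjusted p = 0.000457), a call that held, and 20 of 22 were positive. Pgk1 (0.34, adjusted p = 0.0231) and Pdk1 (0.60, adjusted p = 0.011) were higher too, against 3.45% of all genes higher and 2.98% lower. That glycolysis count was 0 without array 1 and 1 without array 2 of restimulated Th1 cells or array 4 of restimulated Th17 cells, and the ribosome biogenesis count was 2 without array 1 of restimulated Th1 cells. Wdr12 has near-identical copies in the genome, so its probe set is uncertain. A second Wdr12 probe set averaged 8.16 in Th17 and 7.29 in Th1 cells of day 15 without restimulation. After restimulation it averaged 8.03 and 7.07.

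The mean of 16 myeloid markers also differed between the types. It was 7.41, 7.51 and 8.54 in unstimulated Th17 cells of day 5, against 6.45 to 6.79 in Th1 cells. At day 15 it was 7.25 to 7.93 against 6.81 to 6.83. Not all markers went that way. At day 15 without restimulation Itgam was 6.21 to 6.6 in Th17 against 7.11 to 7.17 in Th1 cells. Mmp9 was 10.09 to 10.62 against 11.07 to 11.14. Camp, Cebpe, Csf1r and Cd14 overlapped. All the others were higher on every Th17 array, such as Mpo (9.96 to 10.68 against 7.77 to 8.12). NK and CD8 T cell markers, 6 measured, had a mean of 6.73 to 6.96 in unstimulated Th17 cells of day 15, against 7.64 to 7.81 in Th1 cells, and 6.65 to 6.76 against 7.12 to 7.45 after restimulation. Erythroid markers had 7.79 to 8.14 in restimulated Th17 cells of day 15, against 8.69 to 9.10 in Th1 cells. With the myeloid mean as a covariate the day 5 glycolysis count was 0 in both conditions. At day 15 without restimulation it was 1. The calls of Wdr12 (0.49, limma adjusted p = 0.105) and Utp20 (0.48, 0.0560) in that comparison were lost with it too. Cell cycle genes stood apart as well, with 9 of 29 higher in unstimulated and 23 of 29 in restimulated Th17 cells of day 15. Their part in these results was not tested.

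On day 0, with 1 array per group and no test, the ribosome biogenesis values of restimulated cells stood above those of unstimulated cells. In Th1 cells all 22 were higher and 17 by at least 2-fold, against 3.69% of all genes, while 5.72% of all genes were lower by that much. Their median was 1.43. Rrp9 (2.40), Utp20 (2.21), Noc3l (2.18) and Polr1b (2.10) had the largest log2 differences, with Myc at 0.84. In Th17 cells all 22 were higher and 4 by at least 2-fold, against 1.8% of all genes, with a median of 0.55. None of the 14 glycolysis genes reached 2-fold higher in either type. Without restimulation 3 glycolysis genes were at least 2-fold higher in Th17 cells than in Th1 cells, the phosphofructokinase Pfkl (1.41), Slc16a3 (1.22) and Pdk1 (1.05), against 2.73% of all genes. The myeloid mean moved with that comparison, at 8.87 in Th17 and 6.67 in Th1 cells without restimulation and 8.46 and 6.51 with it, and so did the NK and CD8 T cell mean, at 6.76 and 7.72 without restimulation. Their part in these values was not tested. After restimulation all 22 ribosome biogenesis genes were lower in Th17 cells than in Th1 cells, with a median of -0.46, but 0 by 2-fold, against 1.13% of all genes lower and 3.32% higher by that much.

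Genes of the same pathways that are not in the set were counted next to it. Of 79 other ribosome biogenesis genes 2 were lower and 1, the large subunit ATPase Mdn1, higher (0.71) at day 15 in unstimulated Th17 cells. Over all genes 5.28% were lower and 4.37% higher there. In unstimulated Th1 cells 22 of 79 were lower and 1 higher, with a median of -0.27, against 8.72% and 7.33% of all genes, the largest falls being Mrto4 (-0.79), Lyar (-0.75), Gar1 (-0.72) and Pno1 (-0.66). On restimulation at day 5, 10 rose and 1 fell in Th17 cells (all genes 3.99% and 4.08%) and 12 rose and 2 fell in Th1 cells (4.07% and 8.96%). Mdn1 (0.81), Gtpbp4 (0.74), Rcl1 (0.68) and Nmd3 (0.66) had the largest Th1 rises. Of 50 ribosomal protein genes 16 rose and 0 fell on restimulation in Th17 cells of day 15, with Rpl24 at 0.72, against 6.49% and 11.1% of all genes. The erythroid mean moved with that comparison, as given above. Array 3 of the unstimulated cells had the lowest mean of these 50 genes, at 11.66 against 11.77 to 11.89 on the others. The part of either in this count was not tested. Among 29 other Myc target genes 16 were lower and 2 higher at day 15 in unstimulated Th1 cells, where 8.72% and 7.33% of all genes were, led by Ran (-0.95), Shmt2 (-0.93), Mcm2 (-0.92) and Shmt1 (-0.85). On restimulation of Th1 cells at day 5, 6 of these 29 rose and 5 fell, where 4.07% and 8.96% of all genes did, and the risers included Tfrc (1.01), the transferrin receptor, and the amino acid carrier chains Slc7a5 (0.98) and Slc3a2 (0.87). Of 25 other glycolysis genes 3 were higher and 2 lower at day 15 in unstimulated Th1 cells, near the 7.33% and 8.72% of all genes, where the kinase Pdk3 was lower (-0.83) and Pdk2 higher (0.77). Ndrg1, 1 of 16 measured hypoxia response genes, rose on restimulation at day 5, by 1.40 in Th17 and 1.67 in Th1 cells. Over all genes 3.99% and 4.07% rose there. The rest of that list is not described here, so Ndrg1 does not stand for it.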

How the data were processed

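The data are 28 Affymetrix arrays of mouse RNA. What the authors deposited are log2 signals, made with RMA in Affymetrix Expression Console per the submitters' processing notes. Software versions were not given in the sources used here, nor was which arrays were normalised together. No further normalisation was applied. How many arrays a group has limits its precision.

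Only the 21789 probe sets with a single symbol were used, of 35556. Another 1621 had several symbols and 12146 had no symbol. For the 999 genes with more, the probe set of highest mean over all arrays stood for the gene, which left 19938 genes.

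In limma 3.58.1, under R 4.3.3, the means of the 8 groups after transfer (24 arrays) were fitted by lmFit and moderated by eBayes. This left 16 residual degrees of freedom. The 4 day 0 arrays, 1 per group, are given as values. P-values were adjusted by Benjamini-Hochberg over all genes. On simulated data with 200 of 19938 genes changed, 80 to 99% were recovered at a log2 change of 1 over the comparisons and 95 to 100% at 2, with 8 to 17 unchanged genes called. The simulated noise was independent between genes and arrays. These rates therefore do not cover smaller changes, pairing or a shift shared by the genes of an array.

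The members and gene lists were chosen with earlier results of these data known. All 38 members may be named, and from each other list at most 4 called genes with the largest change per comparison. Erythroid and myeloid markers are named where given beside a result. Pairing by replicate number was checked by asking whether arrays with the same number deviate together from their group means, over 9969 genes. It held, with a correlation over 0.1 for every pair, at day 5 for restimulated Th17 against Th1 cells (0.217 to 0.483) and for restimulation in Th17 (0.384 to 0.474) and Th1 cells (0.158 to 0.215). Alternatives were the replicate block, centred array medians, cyclic loess, genes above the median level, averaging a gene's probe sets, the mean of erythroid or of myeloid markers as a covariate, and dropping single arrays. Where that left 1 array in a group, it was assumed to vary like the others. Promoter sequences came from RefSeq (GRCm38.p6).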

Additional observations from a re-analysis of the deposited data

Results flagged for a closer look

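Each gene was looked at in the Th17 groups of day 15, the groups with 4 arrays, for an array far from the other 3, and 8 of 72 such sets of 4 values had one. The cut-off used flags about 1 in 20 by chance. The sets share the same arrays and are not independent, so the count is not evidence of an excess over that rate. In restimulated Th17 cells of day 15, array 1 was highest for Myc, at 11.87 against 10.66 to 10.75 on the others, and for Wdr43, at 10.41 against 10.32 to 10.33. It was lowest for Pdk1, at 7.69 against 8.01 to 8.07. In the same group, array 2 was highest for Rrp12, at 8.98 against 8.75 to 8.78, and array 3 was lowest for Hk1, at 12.77 against 12.83 to 12.85. In unstimulated Th17 cells of day 15, array 3 was lowest for Nop58, at 8.66 against 9.27 to 9.34, for Ncl, at 10.95 against 11.32 to 11.39, and for Gnl3, at 8.76 against 9.21 to 9.28. A difference between Th17 and Th1 cells in the change from day 5 to day 15 without restimulation was called by limma for Fbl (0.81, adjusted p = 0.00572) and Rrp12 (0.67, adjusted p = 0.024).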

How the results depend on the processing

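Over 104 calls of a member in a comparison, 90 kept direction and call with array medians centred, 92 with cyclic loess, 100 with the mean of all probe sets, 88 with the myeloid covariate, 81 with the replicate block, and 102 of 102 among genes above the median level. With the erythroid covariate 38 did and 5 reversed. Leaving out 1 array kept 447 of 634, and 35 of the 104 calls held without any 1 array. The causes were not tested. The counts that follow are called genes. The covariate for erythroid RNA nearly coincides with day.

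With the erythroid covariate the glycolysis count was 1 in Th17 against Th1 cells for restimulated cells of day 5 (1 higher) and of day 15, 0 on restimulation of Th17 and of Th1 cells of day 15, 0 for day 15 against day 5 in unstimulated and restimulated Th17 cells, 1 in both Th1 conditions, and 1 for the difference of day effects. The ribosome biogenesis count was 4 in restimulated Th17 against Th1 cells of day 15, 3 (3 higher) on restimulation of Th17 cells of day 15 and 1 of Th1 cells. For day against day it was 2 (both lower) and 2 in unstimulated and restimulated Th17 cells, 3 and 4 in Th1 cells, 5 for the difference of day effects and 1 for the change of restimulation effect with day in Th17 cells. Day differences of Pdk1 were -0.50 and -0.063 in unstimulated and restimulated Th17 cells and -0.27 and -0.29 in Th1 cells, and Polr1b was -0.40 in unstimulated Th17 cells. With the myeloid covariate, glycolysis counts were 0 in Th17 against Th1 cells at day 5 in both conditions, 1 at day 15 unstimulated, 5 on restimulation of Th17 cells of day 15 and 1 of Th1 cells of day 5, and the ribosome biogenesis count was 0 in restimulated Th17 against Th1 cells of day 5.

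With array medians centred, the ribosome biogenesis count was 0 in restimulated Th17 against Th1 cells of day 5 and 3 in unstimulated ones of day 15, where glycolysis had 3 (1 higher, 2 lower). On restimulation of Th1 cells glycolysis had 1 at day 5 and 1 at day 15, where ribosome biogenesis had 1. Mean glycolysis levels of day 0 became 0.86 and 0.93 in restimulated and unstimulated Th17 cells and 0.62 and 0.44 in Th1 cells, and for Th1 cells 0.078 (restimulated, day 5), 0.10 (unstimulated, day 5) and -0.30 (unstimulated, day 15). Ribosome biogenesis levels of day 0 became 0.79 and 0.13 in restimulated and unstimulated Th17 cells and 1.29 and -0.14 in Th1 cells, and -0.022 in unstimulated Th1 cells of day 5.

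With cyclic loess, ribosome biogenesis counts were 6 and 10 (6 higher) on restimulation of Th17 cells of day 5 and day 15, 5 and 2 for day 15 against day 5 in unstimulated and restimulated Th17 cells, and 4 for the difference of day effects, where glycolysis had 1. Among genes above the median level, glycolysis had 4 in unstimulated Th17 against Th1 cells of day 15, 2 and 6 on restimulation of Th17 cells of day 5 and day 15, and 1 for the difference of day effects, and ribosome biogenesis had 7 on restimulation of Th17 cells of day 5 and 4 for that difference. With the mean of probe sets glycolysis had 1 in unstimulated Th17 against Th1 cells of day 15. With the replicate block, glycolysis and ribosome biogenesis had 1 and 3 in unstimulated Th17 against Th1 cells of day 15, 2 and 5 on restimulation of Th17 cells of day 5, glycolysis had 0 in restimulated Th17 against Th1 cells of day 15, and ribosome biogenesis had 6 for day 15 against day 5 in unstimulated Th1 cells, 3 in restimulated Th17 cells and 1 for the difference of day effects. Other counts under the block were within 1.5 times.

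Leaving out 1 array gave these ranges for glycolysis and for ribosome biogenesis. Th17 against Th1 cells gave 1 to 2 and 0 at day 5 unstimulated, 0 to 3 and 0 to 1 restimulated, 0 to 3 and 0 to 6 at day 15 unstimulated, and 0 to 3 and 1 to 2 restimulated. Restimulation gave 1 and 1 to 5 in Th17 and 0 to 2 and 3 to 4 in Th1 cells of day 5, and 2 to 5 and 5 to 9 in Th17 and 0 to 3 and 0 to 3 in Th1 cells of day 15. Day 15 against day 5 gave 3 to 5 and 1 to 4 in unstimulated Th17, 6 to 9 and 2 to 10 in unstimulated Th1, 7 to 9 and 0 to 4 in restimulated Th17, and 5 to 7 and 1 to 13 in restimulated Th1 cells. The difference of day effects gave 0 to 1 and 0 to 3, and the change of restimulation effect in Th17 cells gave 0 to 1 for ribosome biogenesis.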
